A study of Mus musculus with 93 samples.

Results

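PPARγ, the product of Pparg, is a nuclear receptor that pairs with retinoid X receptors on direct repeats of AGGTCA set 1 base apart and switches on genes of lipid uptake and storage. It is best known as the master regulator of adipocytes, is low in a lean liver, and rises in fatty livers of many mouse models. Its targets described here act at successive steps of hepatic lipid storage. Cd36 (fatty acid uptake) and Vldlr (uptake of triglyceride-rich lipoproteins) bring lipid in, Fabp4 carries fatty acids in the cytosol, Mogat1 makes diacylglycerol from monoacylglycerol, and Cidea, Cidec and Plin4 coat or enlarge lipid droplets. These 8 genes were found by their Ensembl identifiers among the 53465 genes of the count table, and all 8 were among the 19110 genes that passed the filter on low counts. Cidea reached the filter's level, which 5 mice must reach, in 20 mice, 15 of them C57BL/6J or DBA/2J on the Western diet. It thus passed largely through the groups in which it was high, and counts are also given without it.

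The livers came from 93 male mice of 7 inbred strains, 129S1/SvImJ, A/J, C57BL/6J, CAST/EiJ, DBA/2J, PWK/PhJ and WSB/EiJ, with 5 to 8 mice in each of the 14 groups of strain and diet. All mice were kept at thermoneutrality (30 °C) from 6 weeks of age and ate a Western diet (WD, 40% of energy from fat) or a control diet (CD, 10%) for 17 weeks from 7 weeks of age. They were killed at 24 weeks after a short fast. The labels give no transgene or drug, so each group is defined by strain and diet alone. Each strain came from 2 labelled cohorts (CAST/EiJ from 3). Cohorts 1 to 5 each held 2 or 3 strains, while cohorts 6 and 7 held only WSB/EiJ, which thus shared no cohort with another strain. C57BL/6J and PWK/PhJ shared none with DBA/2J or 129S1/SvImJ, and A/J shared none with DBA/2J. In a direct comparison of such a pair, cohort and strain cannot be told apart. Between the other pairs of strains the part of cohort was not tested. Levels are given as CPM, the count of a gene scaled to a common TMM-normalised library size.

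Promoter windows of RefSeq (GRCm38.p6, from 250 bases before to 50 bases after a transcript start) were at hand for 6 of the 8 genes, Pparg, Cd36, Cidec, Mogat1, Plin4 and Vldlr. The response element, a direct repeat of AGGTCA with 1 free base between the copies, was searched on both strands with up to 2 mismatches. Such a match lay in 3.86% of the 32851 windows of the genome and, among these genes, in the windows of Cd36 and Mogat1. They are shown 5′ to 3′ on the strand of the gene because they are the stretches to which the receptor's known letters can be compared, with the matching 13 bases in capitals. The Cd36 stretch (chr5:17835897-17836146, minus strand) is the 250 bases before the start and overlaps no annotated exon, and its match reads on the opposite strand from base −63 to base −51. The Mogat1 stretch (chr1:78511002-78511028, plus strand) lies within an annotated exon, and its match runs from base −51 to base −39.
Cd36: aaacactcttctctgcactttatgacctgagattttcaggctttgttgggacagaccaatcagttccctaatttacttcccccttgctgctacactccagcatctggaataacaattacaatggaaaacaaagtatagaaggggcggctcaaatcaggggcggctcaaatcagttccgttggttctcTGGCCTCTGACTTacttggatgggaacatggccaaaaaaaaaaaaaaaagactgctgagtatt
Mogat1: agaattcAGGTAAAAAGTCAggctggt
The single motif AGGTCA, which is held by 16.3% of windows, lay in the Cd36 window and in the first and second of 3 Pparg windows. These are the letters of the C57BL/6J reference, and the other strains' own bases at these sites were not analysed here.

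Between 40020424 and 49894856 reads per mouse fell on genes. The share of unmapped reads ranged from a mean of 2.11% in A/J on WD to 13.3% in CAST/EiJ on WD, and all strains were aligned to the C57BL/6J reference, so for any 1 gene a lower level in a strain and a lower share of its reads aligned cannot be told apart. The mean unmapped share also differed between diets. It fell from CD to WD in DBA/2J (6.45% to 4.77%) and A/J (2.25% to 2.11%). In the other strains it rose, most in PWK/PhJ (3.50% to 7.88%). Its part in the diet effects was not tested. Liver identity was clear: Alb was at 37566 CPM or more in every mouse. One library stood apart. The profile of C57BL/6J CD replicate 2 correlated least with the mean of its group (r = 0.959, against 0.979 or more in the other mice), and it held the adipocyte genes Adipoq at 4.84 CPM and Plin1 at 5.41 CPM. Adipoq was above 1 CPM in 4 other mice, C57BL/6J WD replicate 3 (1.53), A/J CD replicate 2 (1.40), WSB/EiJ WD replicate 3 (1.92) and PWK/PhJ CD replicate 6 (1.18). Without all 5 mice the fit below gave 30 calls up and 1 down, against 28 up and 1 down with them.

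In a limma-voom fit over all 93 livers, with p-values adjusted over all 19110 genes in each comparison (Benjamini-Hochberg, threshold 0.05), the 8 genes were upregulated by WD in 28 of the 56 combinations of gene and strain and downregulated in 1 (without Cidea, 26 of 49 up). In C57BL/6J all 8 were upregulated, where 14.3% of all genes tested rose and 11.9% fell. DBA/2J (5 of 8 up, or 4 of 7 without Cidea, 10.2% of genes up and 7.77% down), A/J (5 of 8, 4.39% up and 4.64% down) and 129S1/SvImJ (5 of 8, 14.5% up and 13.6% down) followed. PWK/PhJ had 4 of 8 up, against 15.1% of genes up and 14.5% down. In WSB/EiJ only Cd36 passed the test, with 4.97% of genes up and 3.97% down, and in CAST/EiJ none rose and Cidec fell, with 9.77% of genes up and 9.73% down. The median log2 fold change over the 8 genes was lowest in CAST/EiJ at 0.07 and WSB/EiJ at 0.65, lay at 1.43 for PWK/PhJ, 1.46 for 129S1/SvImJ and 1.74 for A/J, and was highest for DBA/2J at 2.05 and C57BL/6J at 2.18, while the median over all genes tested lay between −0.01 and 0.02 in every strain.

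**Figure D1:**
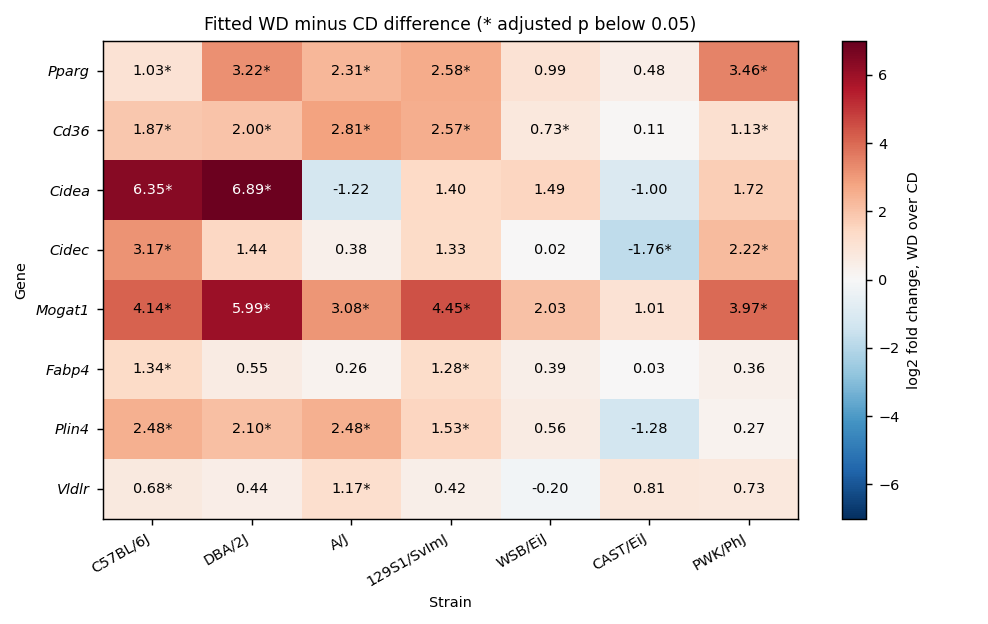
Fitted log2 fold change of WD over CD for the 8 genes (rows) in the 7 strains (columns), with a star where the adjusted p was below 0.05. C57BL/6J has a star in all 8 rows, WSB/EiJ in 1, and CAST/EiJ has its only star at a fall of Cidec.

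The diet effect itself differed between strains for 7 of the 8 genes (6 of 7 without Cidea) by an F test of equal effects over the 7 strains, which called 37.5% of all genes. Vldlr was the exception (adjusted p = 0.492), and Cd36 had the lowest value (adjusted p = 2.24e-11). Set against the mean effect of the other 6 strains, the effect was larger in C57BL/6J for Cidec, Plin4 and Fabp4 and smaller for Pparg, besides Cidea (5 of 8 genes, 4 of 7 without Cidea, against 4.69% of all genes). In DBA/2J the effect was larger for Mogat1, besides Cidea (2 of 8, 1 of 7 without Cidea, against 7.77%), and in A/J and 129S1/SvImJ it was larger for Cd36 alone (1 of 8 each, against 0.466% and 6.28%). The effect on Cd36 was smaller in WSB/EiJ (1 of 8, against 0.947%), and CAST/EiJ had smaller or opposite effects on Cd36, Cidec and Plin4 (3 of 8, against 14.5%). For PWK/PhJ no gene passed (0 of 8, against 16.3%).

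Levels were also compared between strains within each diet, where most genes tested differed. On CD the 7 strains differed in 6 of the 8 genes by the F test of equal means (93.7% of all genes), and Cidea (adjusted p = 0.244) and Plin4 (adjusted p = 0.132) did not pass. By edgeR these passed too (adjusted p = 6.7e-09 and 0.00157). Cidea also passed with genes of any count (adjusted p = 0.0122). Plin4 also passed with sample quality weights (adjusted p = 0.0281) and with cohort as a covariate (adjusted p = 0.0382). Mogat1 passed in the main fit (adjusted p = 0.0305) but not with sample quality weights (adjusted p = 0.0892). For Cidea, 181 of the 221 reads of the C57BL/6J CD group came from replicate 2, the library that stood apart. On WD the strains differed in all 8 (93.9% of all genes). Neither count sets the 8 genes apart from genes in general. In a split of the variance of log2 CPM over the 93 mice, given as a description, strain accounted for 78.9% of Vldlr, 68.4% of Pparg and 63.0% of Fabp4, whereas diet accounted for the largest share of Mogat1 (46.1%) and Cd36 (39.8%). The part that depends on both, strain by diet, was largest for Cidea (28.5%) and Plin4 (24.7%).

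**Figure D2:**
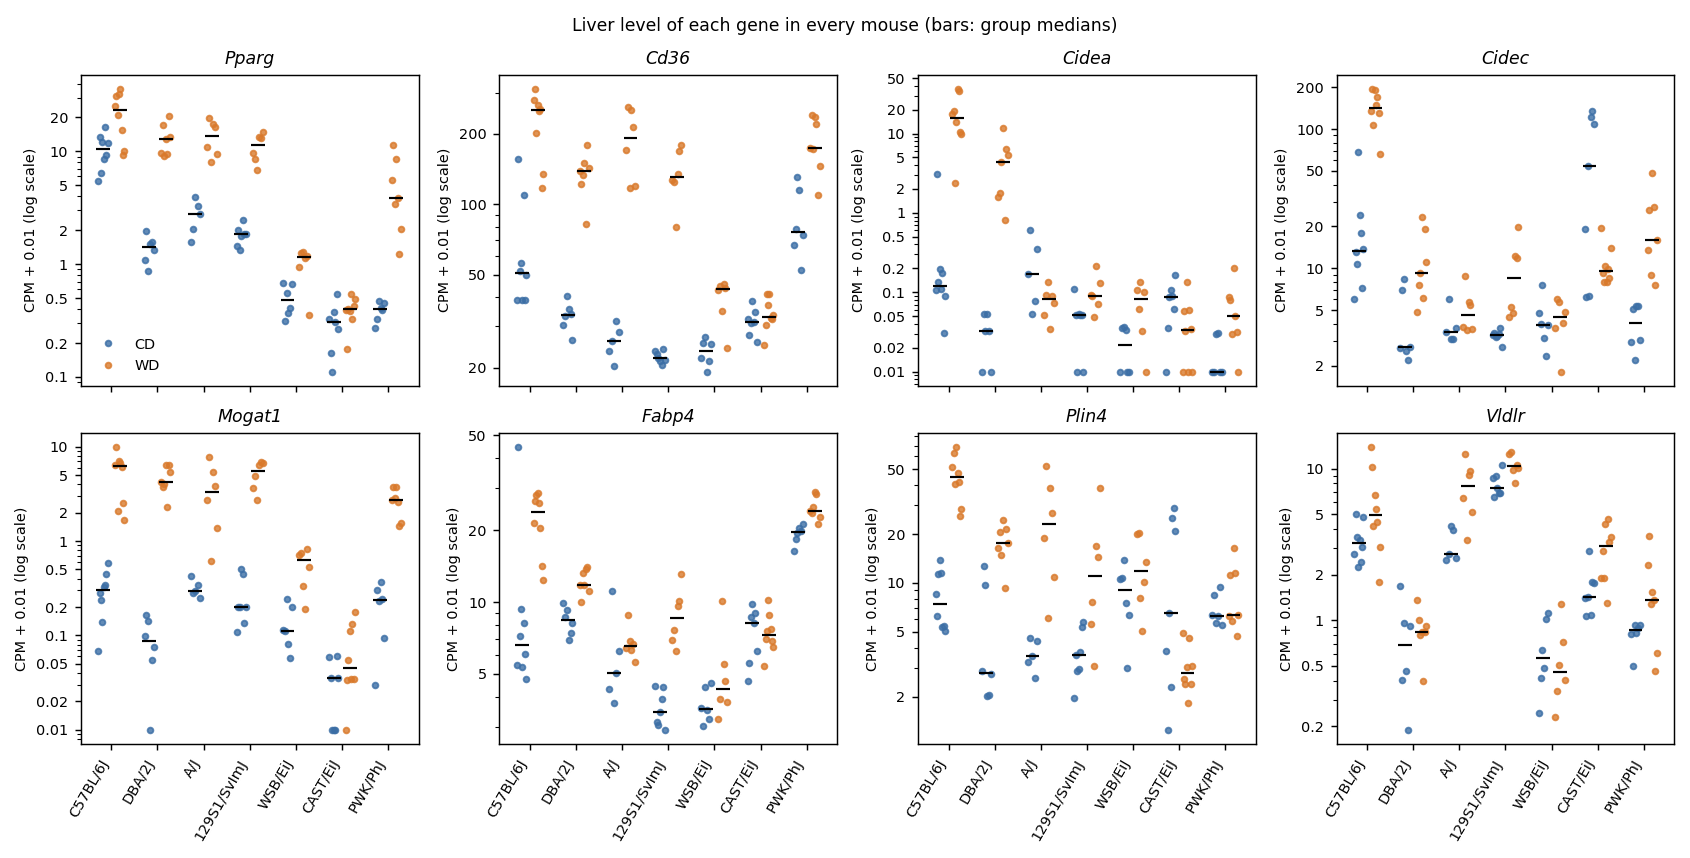
CPM plus 0.01 on a log axis for each of the 8 genes, 1 point per mouse, by strain and diet (blue CD, orange WD), with bars at group medians. Pparg and Mogat1 lie apart between the diets in DBA/2J, A/J, 129S1/SvImJ and PWK/PhJ, and Cidea exceeds 0.595 CPM only in C57BL/6J and DBA/2J on WD and in 1 C57BL/6J mouse on CD at 3.04 CPM.

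Pparg (chr6:115360951-115490399, plus strand) spanned a wide range of basal levels. On CD it was highest in C57BL/6J, where the 8 mice ran from 5.46 through a median of 10.6 to 16.4 CPM, above every CD mouse of the other strains. A/J followed with 1.57 to 3.91 CPM, then 129S1/SvImJ with 1.32 to 2.44 and DBA/2J with 0.862 to 1.95. WSB/EiJ (0.304 to 0.675), PWK/PhJ (0.261 to 0.463) and CAST/EiJ (0.102 to 0.539) came last, with 4 to 28 reads per mouse among them. Of neighbours in this order, C57BL/6J exceeded A/J (log2 difference 1.93 ± 0.38 SE, adjusted p = 2.14e-05), and no other adjacent pair passed (adjusted p = 0.0778 to 0.75).

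On WD, Pparg rose in 5 strains. The PWK/PhJ mice went from at most 0.463 CPM on CD to between 1.22 and 11.5 CPM on WD, with a median of 3.87, and no overlap (log2 fold change 3.46 ± 0.63 SE, n = 6 and 7, adjusted p = 9.39e-06). DBA/2J reached 9.03 to 20.4 CPM with a median of 12.8 (3.22 ± 0.43, adjusted p = 9.67e-09), 129S1/SvImJ 6.86 to 15.0 with a median of 11.5 (2.58 ± 0.37, adjusted p = 1.08e-07), and A/J 8.02 to 20.0 with a median of 13.7 (2.31 ± 0.39, adjusted p = 1.51e-05). In none of these strains did a WD mouse fall among the CD mice. WSB/EiJ on WD ran from 0.342 to 1.27 CPM (0.99 ± 0.73, adjusted p = 0.474, and 0.0299 by DESeq2) with 5 of 6 mice above all CD mice, and CAST/EiJ from 0.167 to 0.533 CPM (0.48 ± 0.84, adjusted p = 0.765). The WSB/EiJ and CAST/EiJ levels rest on 4 to 51 reads per mouse, which leaves a wide error on their fold changes.

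C57BL/6J started highest and had the smallest log2 fold change of the 5 strains, at 1.03 ± 0.21 (adjusted p = 1.00e-04). The C57BL/6J mean went from 10.4 ± 3.68 (SD, n = 8) to 22.6 ± 10.3 CPM (n = 8), so on the CPM scale the rise was not the smallest. Its difference from the mean effect of the other 6 strains was −1.14 ± 0.32 log2 units (adjusted p = 0.0237), and −0.97 with sample quality weights, where the call was lost (adjusted p = 0.0636). The cohorts of this strain differed in it. In cohort 1 the 5 WD mice (20.8 to 36.0 CPM) lay above the 3 CD mice (5.46 to 13.3), whereas in cohort 2 the 3 WD mice (9.23 to 15.5) lay within the 5 CD mice (8.47 to 16.4), a difference of 1.87 and −0.0043 log2 units. The call of the strain as a whole held with cohort as a covariate. The difference between cohorts was not tested.

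Macrophages also express Pparg, and in whole liver a change in the number of cells of a type and a change in RNA per cell cannot be told apart. Macrophage markers rose with WD in 8 of 9 genes in 129S1/SvImJ and PWK/PhJ, 7 of 9 in C57BL/6J, 3 in WSB/EiJ, 2 in CAST/EiJ and 1 in A/J. In DBA/2J no marker of the 9 passed, with a summed level of 289 to 476 CPM on CD and 268 to 462 CPM on WD. Over all strains the summed level ran from 40.4 to 740 CPM on CD and from 162 to 999.8 CPM on WD, with Gpnmb at 0 reads in 3 mice and Trem2 in 1. Their part in the Pparg results was not tested. Over the 7 strains, macrophage markers gave 29 calls up and 0 down of 63 (46.0% up). Hepatocyte markers gave 22 calls down and 1 up of 42 (52.4% and 2.38%), with Alb and Apoa1 lower on WD in 6 strains each. Endothelial markers gave 9 up and 4 down of 49 (18.4% and 8.16%), and stellate cell markers 5 up and 0 down of 42 (11.9% up). Over all genes and strains, 10.5% of tests were called up and 9.44% down. The stellate cell share up and the endothelial share down lay near these.

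Cd36 (chr5:17781690-17888801, minus strand), the fatty acid translocase, was the most widely induced of the 8 genes, passing the test in 6 strains. The 129S1/SvImJ mice rose from 20.5–24.0 CPM (median 22.0) to 80.0–179 CPM (median 131), and A/J from 20.2–31.5 (median 25.9) to 117–261 (median 192). DBA/2J rose from 26.3–40.6 (median 33.5) to 82.1–179 (median 139). In these 3 strains every WD mouse exceeded every CD mouse, and the log2 fold changes were 2.57 ± 0.22, 2.81 ± 0.24 and 2.00 ± 0.22 (SE; adjusted p = 4.76e-15, 6.90e-15 and 2.71e-11). C57BL/6J went from 38.8–157 (median 50.7) to 117–312 (median 252), where 6 of 8 WD mice lay above all CD mice and the highest CD value was that of replicate 2 (1.87 ± 0.20, adjusted p = 6.78e-12, and 2.08 without that mouse).

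PWK/PhJ held the highest Cd36 on CD, at 52.1–130 CPM with a median of 75.9, and rose to 110.0–239.6 with a median of 175 (1.13 ± 0.22, adjusted p = 2.86e-05). WSB/EiJ showed the smallest rise that passed, from 19.2–27.1 to 24.2–45.6 CPM with 5 of 6 mice above all CD mice (0.73 ± 0.23, adjusted p = 0.0337). That call was lost when genes of any count were kept (adjusted p = 0.432). CAST/EiJ was flat, with 25.6–38.6 CPM on CD and 25.0–41.2 on WD (0.11 ± 0.21, adjusted p = 0.791), and its effect differed by −1.74 ± 0.23 log2 units from the mean of the other 6 strains (adjusted p = 3.93e-08). On WD the order ran from C57BL/6J through A/J, PWK/PhJ, DBA/2J and 129S1/SvImJ with no adjacent pair past the threshold (adjusted p = 0.0703 to 0.99), then dropped to WSB/EiJ (log2 difference 1.77 ± 0.23, adjusted p = 4.0e-10), whose difference from CAST/EiJ did not pass (adjusted p = 0.47).

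Vldlr (chr19:27216484-27254231, plus strand), the other uptake gene, varied more with strain than with diet. On CD the 129S1/SvImJ mice had 6.50 to 10.6 CPM, above C57BL/6J (2.25 to 4.99; log2 difference 1.26 ± 0.26, adjusted p = 2.49e-05) and A/J (2.50 to 4.17). WSB/EiJ (0.234 to 1.10), DBA/2J (0.179 to 1.68) and PWK/PhJ (0.487 to 0.929) were lowest. WD raised it in A/J, to 3.38–12.5 CPM (1.17 ± 0.33, adjusted p = 0.0122), with 5 of 6 mice above all CD mice. In C57BL/6J it rose to 1.78–13.9 CPM (0.68 ± 0.26, adjusted p = 0.0424). As for Pparg, the C57BL/6J rise was present in cohort 1 (1.01 log2 units) and not in cohort 2 (−0.09), and the call was lost with cohort as a covariate (adjusted p = 0.0879), in a separate fit of that strain (adjusted p = 0.207) and with genes of any count (adjusted p = 0.0795). The WD mice of 129S1/SvImJ had 8.00 to 12.9 CPM (0.42 ± 0.23, adjusted p = 0.165), those of CAST/EiJ 1.29 to 4.68 CPM against 1.06 to 2.84 on CD (0.81 ± 0.38, adjusted p = 0.128), and those of PWK/PhJ 0.450 to 3.62 CPM (0.73 ± 0.48, adjusted p = 0.266). DESeq2 called CAST/EiJ and PWK/PhJ (adjusted p = 0.0443 and 0.0249), and sample quality weights 129S1/SvImJ (adjusted p = 0.0301).

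Mogat1 (chr1:78510991-78538173, plus strand), a monoacylglycerol acyltransferase, was close to silent on CD, at or below 0.575 CPM in every mouse, and had a larger fitted log2 fold change than Pparg in each of the 5 strains in which both passed, a difference that was not tested. DBA/2J went from 0–0.153 CPM (0 to 7 reads) to 2.27–6.43 CPM with a median of 4.21 (log2 fold change 5.99 ± 0.85 SE, adjusted p = 6.47e-08). The rise in 129S1/SvImJ was from 0.0985–0.499 to 2.71–6.90 CPM, median 5.57 (4.45 ± 0.59, adjusted p = 1.15e-08), and in C57BL/6J from 0.0589–0.575 to 1.67–9.91 CPM, median 6.19 (4.14 ± 0.51, adjusted p = 9.82e-10). PWK/PhJ reached 1.42–3.69 CPM (3.97 ± 0.69, adjusted p = 3.55e-06) and A/J 0.606–7.75 CPM (3.08 ± 0.65, adjusted p = 6.99e-04). The diets did not overlap in any of these 5 strains.

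WSB/EiJ on WD reached 0.179–0.805 CPM, with 5 of 6 mice above all CD mice (0.0472–0.235 CPM). The fit gave 2.03 ± 0.88 (adjusted p = 0.146), while edgeR (adjusted p = 0.00471) and DESeq2 (adjusted p = 7.97e-04) called it. CAST/EiJ stayed at 0 to 0.169 CPM on WD, with 0 to 7 reads per mouse. On WD the 5 responding strains gave no adjacent pair past the threshold (adjusted p = 0.0759 to 0.891), and PWK/PhJ exceeded WSB/EiJ (adjusted p = 9.9e-05), which exceeded CAST/EiJ (adjusted p = 0.0022). Mogat1 shares 200 exonic bases with BC035947 on the opposite strand. The strand setting of the counts is not given in the sources used here, and BC035947 held 659 reads over all mice.

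Fabp4 (chr3:10204088-10208576, minus strand), the adipocyte and macrophage fatty acid-binding protein, rose in fewer strains than Cd36 or Mogat1. The CD level was highest in PWK/PhJ, at 16.3 to 21.2 CPM, above DBA/2J at 6.91 to 9.92 (log2 difference 1.20 ± 0.24, adjusted p = 9.1e-06). WD raised it in 129S1/SvImJ from 2.91–4.46 to 6.25 to 13.04 CPM with no overlap (1.28 ± 0.29, adjusted p = 4.08e-04). In C57BL/6J it went from 4.76–44.6 to 12.4–28.5 CPM (1.34 ± 0.20, adjusted p = 1.06e-07). The larger effect in C57BL/6J than in the other 6 strains was not called by edgeR (0.48, adjusted p = 0.326) or with cohort as a covariate (0.65, adjusted p = 0.0608).

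The 44.6 CPM belongs to replicate 2, and the other 7 CD mice had 4.76 to 9.33. Without that library the C57BL/6J log2 fold change was 1.73 (adjusted p = 2.50e-14), and rises in DBA/2J (0.53, adjusted p = 0.0223, against 0.55 and 0.105 with it) and PWK/PhJ (0.36, adjusted p = 0.0461, against 0.36 and 0.157) then passed as well, as they did with sample quality weights and in separate fits. Every WD mouse of those strains lay above every CD mouse, at 10.0–14.0 CPM in DBA/2J and 21.2–28.9 in PWK/PhJ. A/J, WSB/EiJ and CAST/EiJ overlapped between diets, with log2 fold changes of 0.26, 0.39 and 0.03. In A/J and WSB/EiJ the highest mouse was one with Adipoq above 1 CPM (Fabp4 at 11.1 CPM in A/J CD replicate 2 and 10.1 CPM in WSB/EiJ WD replicate 3), and without the 5 such mice the values were 0.49 and 0.17.

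Cidea (chr18:67343604-67367785, plus strand), a lipid droplet protein best known from brown fat, was the most strain-restricted of the 8. C57BL/6J mice on WD had 2.40, 9.80, 10.6, 13.9, 17.5, 19.3, 34.0 and 36.7 CPM, and DBA/2J mice on WD had 0.8002 to 11.7 CPM with a median of 4.41. In the other 5 strains no mouse on either diet exceeded 0.595 CPM, and on WD none exceeded 0.202 CPM or 10 reads. At these few reads only DESeq2 gave a call, in PWK/PhJ (3.03, adjusted p = 0.0293). The log2 fold changes were 6.35 ± 0.75 in C57BL/6J (SE, adjusted p = 2.05e-10) and 6.89 ± 1.39 in DBA/2J (adjusted p = 1.28e-04). The latter is set against 6 reads in all over 6 CD mice, so its size depends on the small constant that the fit adds. Since most mice that brought the gene past the filter were of these 2 groups, no support is drawn from these calls.

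Adipocyte markers were compared with Cidea in the WD mice. The 2 C57BL/6J mice with 19.3 and 36.7 CPM of Cidea had 0 reads of Adipoq, which encodes adiponectin, and the 3 others above 13 CPM had 0.0794 to 0.0940 CPM. The mouse with the least Cidea (2.40 CPM) had the most Adipoq (1.53 CPM). In DBA/2J on WD, Adipoq was at 0.0217 to 0.524 CPM and Plin1 at 0.0434 to 0.564 CPM. Of the 7 adipocyte markers, 5 were tested (Lep and Retn were too low), and Cfd, which encodes adipsin, rose with WD in the same strains as Cidea, from 0.178–1.16 CPM in 7 CD mice and 17.6 CPM in replicate 2 to 2.80–149.6 CPM in C57BL/6J and to 1.47–5.70 CPM in DBA/2J, and its part in the result was not tested. Adrb3 rose in PWK/PhJ, and Lep, Retn, Adipoq, Plin1 and Cfd each had mice at 0 reads. The summed adipocyte markers ran from 0.201 to 67.8 CPM on CD and from 0.771 to 154 CPM on WD. Adrb3 alone had a mean of 48.7 CPM in DBA/2J on CD. The CD library that stood apart had the only Cidea above 0.184 CPM in its group, at 3.04 CPM. Without it the C57BL/6J log2 fold change was 7.01 (adjusted p = 1.07e-09).

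**Figure D3:**
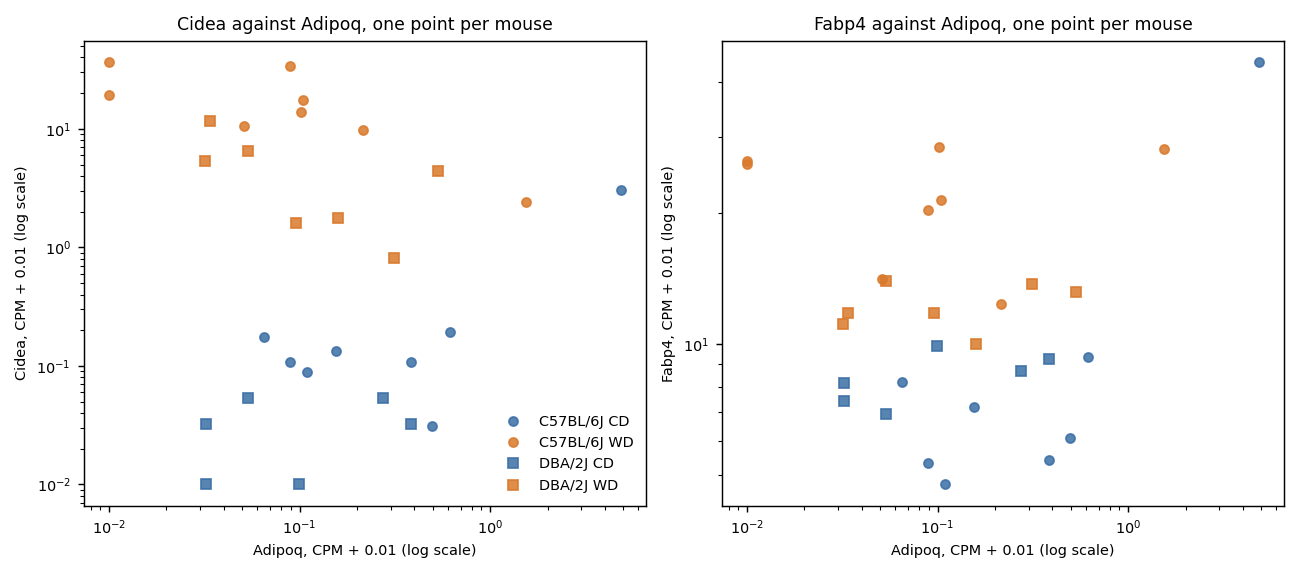
Cidea (left) and Fabp4 (right) against the adipocyte gene Adipoq in each C57BL/6J (circles) and DBA/2J (squares) mouse, CPM plus 0.01 on log axes, blue CD and orange WD. The C57BL/6J WD mouse with the most Cidea (36.7 CPM) lies at 0 reads of Adipoq, and 1 C57BL/6J CD mouse stands apart at 4.84 CPM of Adipoq and 44.6 CPM of Fabp4.

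Cidec (chr6:113424634-113435760, minus strand), which promotes fusion and growth of lipid droplets, was called up in 2 strains and down in 1 by the limma-voom fit. In C57BL/6J it rose from 6.03–68.8 CPM (median 13.4) to 66.3–195 CPM (median 142), a log2 fold change of 3.17 ± 0.39 SE (adjusted p = 8.34e-10), with 7 of 8 WD mice above all CD mice. PWK/PhJ rose from 2.19–5.40 to 7.55–48.5 CPM (median 15.9) with no overlap (2.22 ± 0.61, adjusted p = 0.00281). In DBA/2J (2.20–8.40 to 4.85–23.5 CPM) and 129S1/SvImJ (2.72–3.72 to 4.45–19.8 CPM) the fit gave 1.44 ± 0.65 and 1.33 ± 0.65 (adjusted p = 0.118 and 0.122), and edgeR, DESeq2, sample quality weights and separate fits each called both. A/J (3.11–6.02 to 3.61–8.84 CPM) and WSB/EiJ (2.34–7.58 to 1.81–6.08 CPM) overlapped between diets (0.38 ± 0.77 and 0.02 ± 0.77).

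CAST/EiJ went the other way, with a log2 fold change of −1.76 ± 0.44 (adjusted p = 0.00187). Its 7 CD mice had 6.27, 6.34, 19.2, 54.5, 108, 122 and 134 CPM, and its 8 WD mice 8.01 to 19.5 CPM with a median of 9.55. Of the CD mice, 4 lay above all WD mice, 1 among them and 2 below. The 3 above 100 CPM were of cohort 4, whose remaining CD mouse had 6.34 CPM. The difference of means pointed down in each of the 3 cohorts (−0.76, −1.01 and −2.45 log2 units for cohorts 1, 3 and 4). Cohort 1 held only 1 CD mouse, at 19.2 CPM, within its WD range of 8.01 to 19.5 CPM. Cohort 3 held 2 CD mice, at 6.27 and 54.5 CPM, against 8.03 to 10.5 CPM on WD. In a separate fit of this strain the adjusted p was 0.102 at the same fold change. The effect in CAST/EiJ differed by −3.19 ± 0.51 log2 units from the mean of the other 6 strains (adjusted p = 6.00e-06).

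Plin4 (chr17:56100591-56109803, minus strand), a perilipin of nascent droplets, was high in the same CAST/EiJ mice as Cidec. The 3 CD mice with Cidec above 100 CPM had 20.7, 25.2 and 28.7 CPM of Plin4, the other 4 had 1.24 to 6.56, and the 8 WD mice 1.82 to 4.92. The fit gave −1.28 ± 0.57 (adjusted p = 0.106), edgeR −2.03 (adjusted p = 2.99e-04) and DESeq2 −2.05 (adjusted p = 3.22e-05). Relative to the mean of the other 6 strains the effect was −2.85 ± 0.61 log2 units (adjusted p = 4.88e-04). In 4 strains Plin4 rose. C57BL/6J went from 5.07–13.9 to 25.7–68.6 CPM (2.48 ± 0.37, adjusted p = 1.34e-07) and A/J from 2.60–4.60 to 6.12–52.4 CPM (2.48 ± 0.58, adjusted p = 0.0024), both with no overlap. DBA/2J (2.10 ± 0.52, adjusted p = 0.00199) and 129S1/SvImJ (1.53 ± 0.53, adjusted p = 0.0239) rose with some overlap. PWK/PhJ, in which Pparg, Cd36, Cidec and Mogat1 rose, had 5.51–9.38 CPM on CD and 4.72–16.5 on WD (0.27 ± 0.48, adjusted p = 0.727). WSB/EiJ had 2.98–13.8 CPM on CD and 5.05–20.2 on WD (0.56 ± 0.49, adjusted p = 0.573). Plin4 shares 17 exonic bases with Hdgfl2 on the opposite strand.

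**Figure D4:**
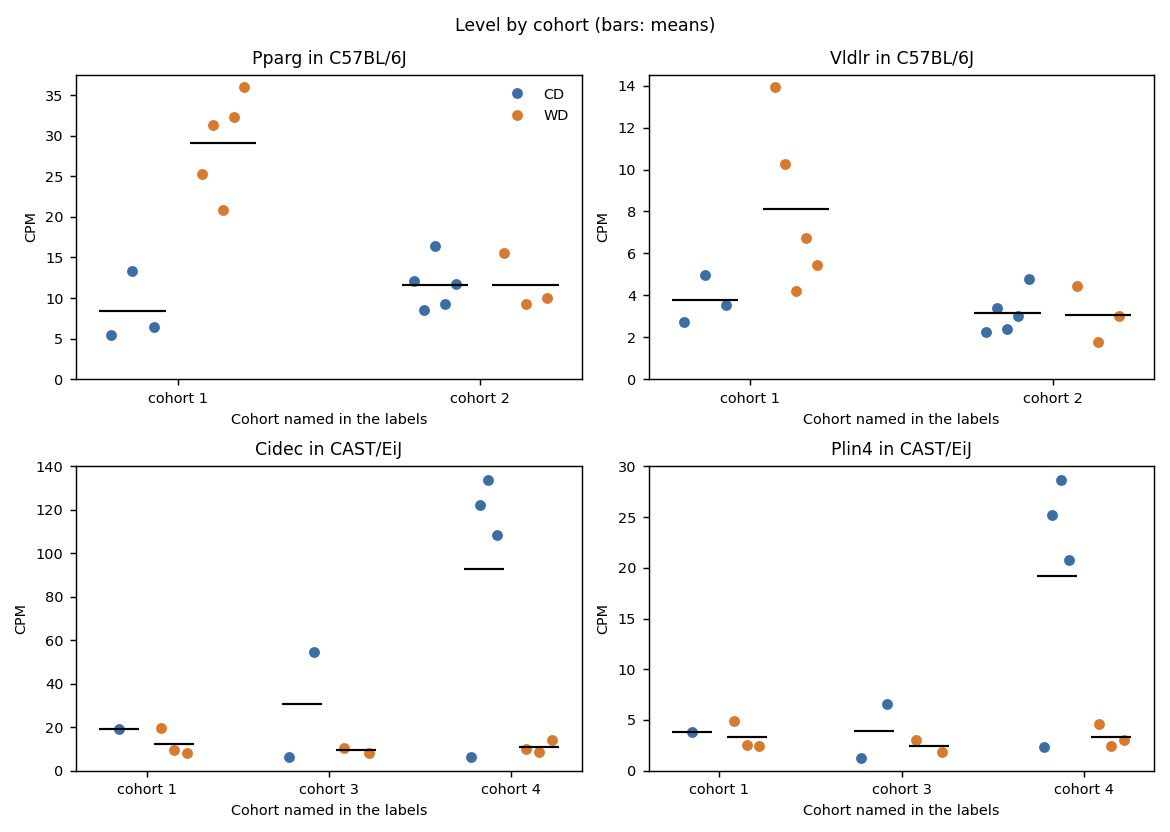
CPM of Pparg and Vldlr in C57BL/6J (top) and of Cidec and Plin4 in CAST/EiJ (bottom) by the cohort given in the labels, 1 point per mouse, blue CD and orange WD, bars at means. In C57BL/6J the WD mice of cohort 1 have a mean of 29.1 CPM of Pparg against 11.6 CPM in cohort 2, and in CAST/EiJ the highest CD mice belong to cohort 4.

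Of the 29 effects that passed the test, 27 pointed the same way in every cohort of the strain. The other 2 were those of Pparg and Vldlr in C57BL/6J. The cohorts are parts of the same mice that gave the calls, so this count is a description and not an independent check. Its share over all called genes was not computed. Some cohorts held few mice of a strain and diet, down to 1 CD mouse for CAST/EiJ in cohort 1. Per kilobase of the longest protein-coding transcript, the C57BL/6J livers on WD held most of Cidec (mean 83.2 CPM per kb), then Cd36 (66.7), Fabp4 (24.7), Cidea (16.2), Pparg (10.6), Plin4 (7.97), Mogat1 (4.30) and Vldlr (0.781). On CD the same strain held most of Cd36 (19.8 CPM per kb), followed by Fabp4 (12.7) and Cidec (11.8). Without replicate 2 the order was Cd36 (16.1), Cidec (12.3) and Fabp4 (7.38). CAST/EiJ on CD held 37.4 CPM per kb of Cidec.

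To ask whether the targets follow Pparg among mice of the same strain and diet, each mouse's deviation from its group mean of log2 CPM was correlated with that of Pparg over the 93 mice. Permutation of Pparg within groups (100000 draws, two-sided) gave the p-values, and 7 relations were examined. Cd36 tracked Pparg most closely (Pearson's r = 0.618, Spearman's rho = 0.607, p = 1e-05 for each, the smallest that these draws can give), followed by Mogat1 (r = 0.464, rho = 0.459, p = 2e-05 and 1e-05). Among the 19109 other genes tested, whose r had a median of 0.01 and a 95th percentile of 0.33, Cd36 ranked at 5 and Mogat1 at 118. Vldlr (r = 0.395, rho = 0.331, p = 0.0015 and 0.0041), Cidec (r = 0.352, rho = 0.371, p = 0.003 and 0.001), Plin4 (r = 0.345, rho = 0.313, p = 0.0016 and 0.0056) and Fabp4 (r = 0.320, rho = 0.406, p = 0.0024 and 1.8e-04) were weaker. Cidea had r = 0.235 and rho = 0.229 (p = 0.042 and 0.046).

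With p-values of r adjusted over all 19109 genes, 6 of the 7 targets passed (adjusted p = 0.0023 for Cd36 and 0.0031 for Mogat1, 0.027 to 0.04 for Vldlr, Plin4, Fabp4 and Cidec, and 0.18 for Cidea), as did 1729 genes in all (9.05%). Leaving out the 2 mice with the most extreme Pparg, both PWK/PhJ on WD, kept r = 0.593 for Cd36 and 0.452 for Mogat1. The other 5 targets had r of 0.227 to 0.340 and did not pass (2 of 7, against 2.27% of all genes). With residuals from means of strain, diet and cohort, Cd36 and Mogat1 were again the only targets to pass (r = 0.644 and 0.465; 2 of 7, against 1.3% of all genes). In the 48 WD mice r was 0.790 for Cd36 and 0.564 for Mogat1, and in the 45 CD mice 0.369 and 0.300, where no target and no other gene passed (0 of 7, against 0% of all genes). At an unadjusted permutation p of r below 0.05, 2 of the 7 targets passed in the CD mice, Cd36 (p = 0.021, and 0.014 for rho) and Mogat1 (p = 0.04, and 0.1 for rho), against 8.49% of all genes. The difference between diets was not tested. Within single WD groups of 6 to 8 mice, given as a description, r of Cd36 with Pparg ran from 0.370 in CAST/EiJ to 0.976 in A/J. Within CD groups of 5 to 8 mice its sign varied, from −0.41 in 129S1/SvImJ and −0.26 in DBA/2J to 0.701 in C57BL/6J.

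**Figure D5:**
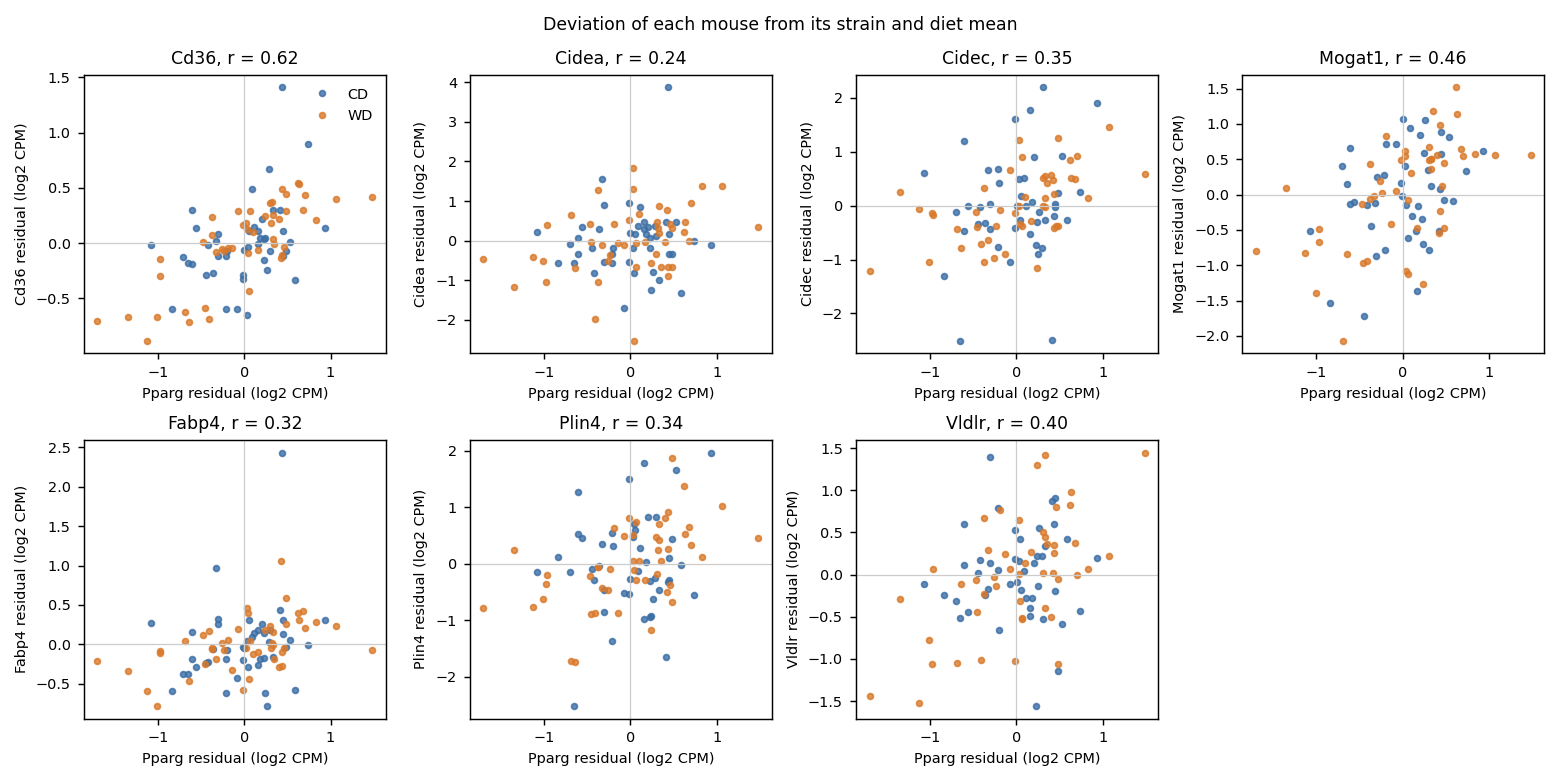
Deviation of each mouse from its strain and diet mean in log2 CPM, Pparg on the horizontal axis and each of the 7 targets on the vertical axis, blue CD and orange WD. Cd36 shows the tightest cloud (r = 0.62), and Cidea the loosest (r = 0.24).

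The genes whose pattern over the 14 group means was most like that of Pparg, by Pearson's r of log2 CPM among genes whose log2 CPM averaged 1 or more, were Ywhah (r = 0.948), Clec12a (0.932), Wwtr1 (0.930), Cd86 (0.924) and Pak1 (0.924). Of the targets, Mogat1 was nearest (r = 0.858), then Cd36 (0.724), Cidea (0.664), Plin4 (0.642), Vldlr (0.529), Cidec (0.336) and Fabp4 (0.329). Among all genes tested, many lay nearer to Pparg: Mogat1 ranked at 159, Cd36 at 1074, Cidea at 1651 and Plin4 at 1865. Vldlr ranked at 3102, Cidec at 5341 and Fabp4 at 5435. Clec12a and Cd86 are known from myeloid cells. These are 14 points that share strains and libraries, and the values are a description.

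Other genes of the pathway were called in both directions, at shares to be read against 10.5% up and 9.44% down over all genes and strains. Among 17 further receptors, partners and coregulators (PPARs, RXRs, C/EBP factors, coactivators and corepressors), 5 of 119 calls were up (4.20%), 3 of them in C57BL/6J and 2 in PWK/PhJ, and 15 were down (12.6%), with up to 6 in a strain (CAST/EiJ). The list's median log2 fold change lay between −0.19 and 0.06. Cebpa fell in DBA/2J (log2 fold change −0.79), 129S1/SvImJ (−0.42) and WSB/EiJ (−0.44). Cebpd and Cebpb, which precede Pparg in adipocyte differentiation, rose in C57BL/6J (1.15 and 0.66) and fell in CAST/EiJ (−0.75 and −0.55). Ppara, the main hepatic PPAR, rose in C57BL/6J (0.57) and PWK/PhJ (0.62).

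Among 17 further PPARG target genes, 16 calls up and 16 calls down (13.4% each of 119) were spread over the 7 strains, with list medians between −0.68 in CAST/EiJ and 0.09 in C57BL/6J. Ucp2 rose in C57BL/6J, DBA/2J, 129S1/SvImJ and PWK/PhJ (0.40 to 1.12). Lpl, a lipase that macrophages also make, rose most in PWK/PhJ (2.64), and Slc2a4, the insulin-responsive glucose transporter, in A/J (1.93), WSB/EiJ (1.89) and C57BL/6J (1.21). Fabp5, the neighbour of Fabp4 in its gene family, went against the direction of the members, falling by 1.65 to 2.48 on the log2 scale in 5 strains, from a mean of 83.7 to 17.6 CPM in C57BL/6J.

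Of 16 paralogs of the members, 18 calls were up and 14 down (16.1% and 12.5% of 112). Fabp2 rose in all 7 strains (0.72 to 1.05), also in CAST/EiJ (0.89), where Fabp4 and Cd36 did not pass. Plin3 rose in A/J, 129S1/SvImJ and PWK/PhJ (0.25 to 0.53). The lists overlap in Scarb1 and other genes, so their calls are not separate counts.

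Glycerolipid synthesis enzymes (12 genes, 14 calls up and 7 down, 16.7% and 8.33% of 84) gave 5 calls up and none down in C57BL/6J, and 4 down and none up in CAST/EiJ. Lpin1, which makes diacylglycerol, rose in C57BL/6J (1.01) and fell in 129S1/SvImJ (−1.13), PWK/PhJ (−1.17) and CAST/EiJ (−1.66). In CAST/EiJ its mean went from 578 CPM (SD 584) on CD to 129 CPM (SD 99.5) on WD, so the CD mice were widely spread. Mogat2, the intestinal relative of Mogat1, rose in C57BL/6J (1.50) and DBA/2J (1.07) at group means no higher than 0.599 CPM. Gpat4 rose in 4 strains (0.53 to 0.91) and Lpin3 in DBA/2J (0.62) and PWK/PhJ (0.41). Of the 10 genes of fatty acid and lipoprotein uptake (7 calls up and 7 down, 10% each of 70), none rose in A/J or CAST/EiJ and at most 2 did in any strain, Slc27a1 in 129S1/SvImJ (0.57) and PWK/PhJ (0.51) among them. Scarb1 rose in WSB/EiJ (0.56) and PWK/PhJ (0.33) and Slc27a4 in C57BL/6J (0.26) and DBA/2J (0.36).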

How the data were processed

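RNA from 93 livers was sequenced by the authors with a SMARTER mRNA kit on a BGISEQ-500, and reads of all strains were aligned without trimming to the C57BL/6J genome (GRCm38) with STAR 2.7.1a, per the study's methods and the submitters' processing notes. The deposited values are raw counts of reads per gene, made by STAR, with 4 summary lines that held 19.9% to 34.7% of all reads per mouse and were left out. The annotation release and the strand setting are not given in the sources used here. Symbols came from GENCODE M21, which named 53360 of 53465 identifiers.

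The main test was limma-voom (limma 3.58.1, edgeR 4.0.16, R 4.3.3) with TMM factors on genes kept by filterByExpr (minimum count 10), 1 mean per strain and diet. Contrasts were WD minus CD in each strain, that effect against the mean of the other 6, and F tests over strains. The code was tested on simulated data. Mice of a group are separate animals. No library pair within a group agreed within counting error. Alternatives were edgeR, DESeq2 1.42.0, upper-quartile scaling, 2 other filters, quality weights, cohort as a covariate, separate fits and left-out mice. Leaving out C57BL/6J CD replicate 2, or the 5 mice with Adipoq above 1 CPM, was chosen after seeing the data. Covariation used log2 CPM with a prior count of 2 and p-values adjusted over all genes. Depth was 40020424 to 49894856 reads per mouse. Values after ± are standard errors of the limma-voom fit or, where marked, SDs between mice. The rule for other named genes was up to 4 per list, by the number of strains called and then by size, with exceptions chosen after values were seen (Trem2, Retn, Lep). The members and lists were chosen with earlier results of these data known. Promoter sequences are from RefSeq. One listed gene is not reported here by name.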

Additional observations from a re-analysis of the deposited data

Results flagged for a closer look

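In 10 of 112 groups of 1 gene, strain and diet, a single mouse lay far from the rest of its group by Dixon's test. For normally distributed values, chance alone gives such a mouse in about 1 group in 20. The test was run on CPM, for which this was not checked, and some groups lie near 0 reads. In the C57BL/6J CD group these were Cidea at 3.04 CPM and Fabp4 at 44.6 CPM, both in replicate 2, and Cidec at 68.8 CPM in replicate 4. High mice were also found for Cidec in A/J on CD (6.02 CPM), Fabp4 in WSB/EiJ on WD (10.1 CPM), Vldlr in CAST/EiJ on CD (2.84 CPM), and Cidea in PWK/PhJ (0.190 CPM) and CAST/EiJ (0.126 CPM) on WD. The A/J and WSB/EiJ mice also held adipocyte genes, with Adipoq at 1.40 and 1.92 CPM and Plin1 at 1.49 and 1.72 CPM, as did C57BL/6J CD replicate 2. Their part in these values was not tested. Low mice were found for Pparg in WSB/EiJ on WD (0.342 CPM) and Vldlr in PWK/PhJ on CD (0.487 CPM).

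In 13 cases the diet effect of a strain differed from the mean effect of the other 6 in the limma-voom fit. In C57BL/6J the log2 difference was −1.14 for Pparg, 4.81 for Cidea, 2.57 for Cidec, 0.87 for Fabp4 and 1.53 for Plin4. In DBA/2J it was 5.43 for Cidea and 2.87 for Mogat1. For Cd36 it was 1.41 in A/J, 1.12 in 129S1/SvImJ, −1.02 in WSB/EiJ and −1.74 in CAST/EiJ. In CAST/EiJ it was −3.19 for Cidec and −2.85 for Plin4. The values of Cidea are given as a description, since 15 of the 20 mice in which it reached the filter's level were C57BL/6J or DBA/2J on WD.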

How the results depend on the processing

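Of the 29 diet effects that passed the test, 26 kept their call in every alternative that could be fitted. The 3 others were Cd36 in WSB/EiJ with genes of any count, Cidec in CAST/EiJ in a separate fit, and Vldlr in C57BL/6J with genes of any count, with cohort as a covariate and in a separate fit. A filter of at least 10 counts in every mouse removed Pparg, Cidea, Mogat1 and Vldlr, so the calls up fell to 14, with 4 in C57BL/6J, 2 in DBA/2J, 2 in A/J, 3 in 129S1/SvImJ and 2 in PWK/PhJ, and the F tests called 4 genes for the difference of the diet effect, 3 on CD and 4 on WD. Calls down numbered 2 by edgeR, 2 by DESeq2 and 0 in separate fits. In WSB/EiJ the calls up were 2 by edgeR, 3 by DESeq2 and 0 with genes of any count, and in CAST/EiJ 1 by DESeq2. Counts of calls under these other fits are given without the share of all genes called by the same fit. A change in them cannot be told apart from a change in the number of genes called in general. Covariation with Pparg kept 2 targets within cohorts, 2 without the most extreme mice and 0 in CD mice alone. Of the lists, receptors and coregulators had 3 calls up with genes of any count and 3 with quality weights, glycerolipid enzymes 4 and 11 calls down, and uptake genes 12 calls up with quality weights and 12 in separate fits. Of the differences from the other 6 strains, those of Cd36 in A/J (1.40) and WSB/EiJ (−1.01) were lost with genes of any count, Pparg in C57BL/6J (−0.97) with quality weights, and Fabp4 in C57BL/6J by edgeR and with cohort as a covariate. Without C57BL/6J CD replicate 2 the calls up numbered 30, and leaving out each A/J CD mouse gave 28 calls up and 1 down each time. The sign turned for Cidec in WSB/EiJ with cohort as a covariate (−0.0012) and without the 5 mice with Adipoq above 1 CPM (−0.0901), and for Fabp4 in CAST/EiJ with quality weights (−0.0263) and DESeq2 (−0.0024). The causes were not tested. No paired analysis was possible because replicate numbers only name the mice of a group. Few reads per mouse (4 to 28) limit Pparg in WSB/EiJ, CAST/EiJ and PWK/PhJ on CD.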
